A study of Rattus norvegicus with 18 samples.

Results

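The genes described here are 8 members of the interleukin-1 (IL-1) system and its inflammatory partners in rat muscle labelled soleus. They are the cytokine genes Il1a, Il1b and Il18, the receptor antagonist gene Il1rn, the receptor genes Il1r1 and Il1r2, and the calcium-binding protein genes S100a8 and S100a9. They were chosen by gene symbol, as the probe sets that list one of these symbols and no other gene. This gave 11 probe sets of the 31042 tested, and 8 genes of 14217. A gene with several probe sets is represented by the one with the highest mean over the 18 arrays. Male rats had either a 5/6 nephrectomy, called SNX in the labels, which removes most of the kidney tissue, or a sham operation. The femoral artery of the right hindlimb was ligated and resected 8 weeks later, and the soleus of both limbs was taken after a further 24 hours. The 4 groups are sham left and sham right (4 rats, numbers 11, 13, 15 and 17) and SNX left and SNX right (5 rats, numbers 12, 18, 20, 37 and 49), with 1 array per limb of each rat. The source labels call every sham array nonischemic and every SNX array ischemic, whereas the design text has the right limb ligated in all rats, and operation and side name the groups here. The left limb of the sham rats serves as the control, although its animals also had the right artery ligated.

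IL-1 alpha and IL-1 beta bind the type 1 receptor encoded by Il1r1, which signals through MyD88 and IRAK kinases to NF-kB. Il1rn encodes an antagonist that occupies this receptor without signalling, and Il1r2 encodes a decoy receptor that binds IL-1 but does not signal. IL-1 beta and IL-18 are made as precursors that caspase-1 cleaves inside inflammasomes. S100A8 and S100A9 form a heterodimer, calprotectin, that is abundant in neutrophils and in freshly recruited monocytes and acts on TLR4 and RAGE once released. In injured muscle these proteins come mainly from infiltrating leukocytes.

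Expression is given as the authors' log2 probe set level, on a scale where 1 unit is a doubling. Array medians lay between 3.23 and 3.38, and a level at or below 3.38 is treated here as not above background, a bound set after the values were seen. The arrays of the right muscles of sham rat 17 and of SNX rat 49, written sham right 17 and SNX right 49 here, correlated least with the rest (0.979 and 0.980 on average, and 0.987 or more for each of the others). They had the highest means of a list of 12 measured macrophage and monocyte markers, at 8.43 and 7.86. The same arrays also had the highest means of the neutrophil (3.11 and 3.02), T cell (3.49 and 3.23), mast cell (3.32 and 3.51) and platelet (3.49 and 3.43) marker lists. Most genes of those lists were not above background on these arrays. Results that rest on these arrays are given with and without them, or are said to rest on them. For most of the pathway gene lists below, only counts are given without them. The labelled tissue, a slow muscle, was checked against 8 slow fibre markers, which were above background on every array but varied widely, with list means from 10.77 to 14.77. The 7 measured fast fibre markers were above background as well, with list means from 14.62 to 14.96. On every array but SNX left 12 (14.64 against 14.77) the fast fibre mean lay above the slow fibre mean. The fast myosin gene Myh4 lay between 14.70 and 15.66. Fast fibre markers were thus strong on every array, although probe sets differ in signal and these levels do not give shares of fibres. The lowest slow fibre mean was that of SNX rat 20 on the right, whose left muscle had 12.94. Whether the samples hold muscle other than soleus was not tested, so the tissue label is uncertain to that extent. The arrays measure whole tissue, so fewer cells of a type and less RNA per cell cannot be told apart.

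The RefSeq promoter table of the GRCr8 assembly held a 300-base window (250 bases before and 50 after the gene start) for 6 of the 8 genes, the exceptions being S100a8 and Il1r2. The windows of Il1r1, Il1b and S100a9 are shown because most of the results below turn on these genes. Capitals mark matches, on either strand, to a TATA box (TATAAA), to the C/EBP motif TTGCNNAA or to the NF-kB consensus. The Il1r1 window is at chr9:50034133-50034432 on the plus strand, the Il1b window at chr3:137036532-137036831 on the minus strand and the S100a9 window at chr2:178490573-178490872 on the minus strand.
Il1r1: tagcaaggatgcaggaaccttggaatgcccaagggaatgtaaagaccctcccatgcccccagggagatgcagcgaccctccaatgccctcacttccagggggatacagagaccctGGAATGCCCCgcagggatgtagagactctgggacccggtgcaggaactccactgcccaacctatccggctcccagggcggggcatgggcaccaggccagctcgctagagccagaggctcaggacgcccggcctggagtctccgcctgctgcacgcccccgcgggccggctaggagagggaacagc
Il1b: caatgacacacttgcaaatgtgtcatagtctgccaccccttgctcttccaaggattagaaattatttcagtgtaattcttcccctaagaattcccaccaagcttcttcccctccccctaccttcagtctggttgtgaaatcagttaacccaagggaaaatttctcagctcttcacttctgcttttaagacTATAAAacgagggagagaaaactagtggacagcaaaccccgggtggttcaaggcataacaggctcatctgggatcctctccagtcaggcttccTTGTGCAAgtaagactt
S100a9: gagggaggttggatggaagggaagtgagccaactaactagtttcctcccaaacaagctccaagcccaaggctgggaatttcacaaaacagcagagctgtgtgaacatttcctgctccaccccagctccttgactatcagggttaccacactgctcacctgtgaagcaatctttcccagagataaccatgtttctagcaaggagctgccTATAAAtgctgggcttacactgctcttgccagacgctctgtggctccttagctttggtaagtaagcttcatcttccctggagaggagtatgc
The Il1r1 window was 65.3% G and C, held no TATAAA, and had 1 NF-kB match, on the opposite strand 135 bases before the start. The Il1b window was 45.3% G and C, with TATAAA 60 bases before the start and a C/EBP match on the opposite strand 33 bases after it. The S100a9 window held TATAAA 42 bases before the start. Among 33469 promoters of this length, 7.51% held the NF-kB match, 14.2% a TATAAA and 10.6% the C/EBP match, with no overlap between the marked matches shown. These matches describe letters only. In the RefSeq gene order, S100a8 and S100a9 are direct neighbours, as are Il1a and Il1b, while 2 genes lie between Il1r1 and Il1r2.

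The type 1 receptor gene Il1r1 was the member that passed the test for the ligated right limb against the left. It was 1.92-fold higher on the right when sham and SNX rats were averaged (limma adjusted p = 0.0456). It did not pass in either kind of rat alone, and the call was lost when any rat was left out. It rests on the main probe set, since the others lay below background. Il1b was higher on the right in every sham rat but near background in most muscles. Il18, Il1rn and Il1r2 rose above background on 1 to 3 right limb arrays each, and Il1a on none. S100a8 and S100a9 were highest in both limbs of sham rat 17 and in the right limb alone of SNX rat 49. No member passed the test between SNX and sham rats in either limb, where 0.00644% (left) and 0% (right) of all probe sets passed.

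**Figure D1:**
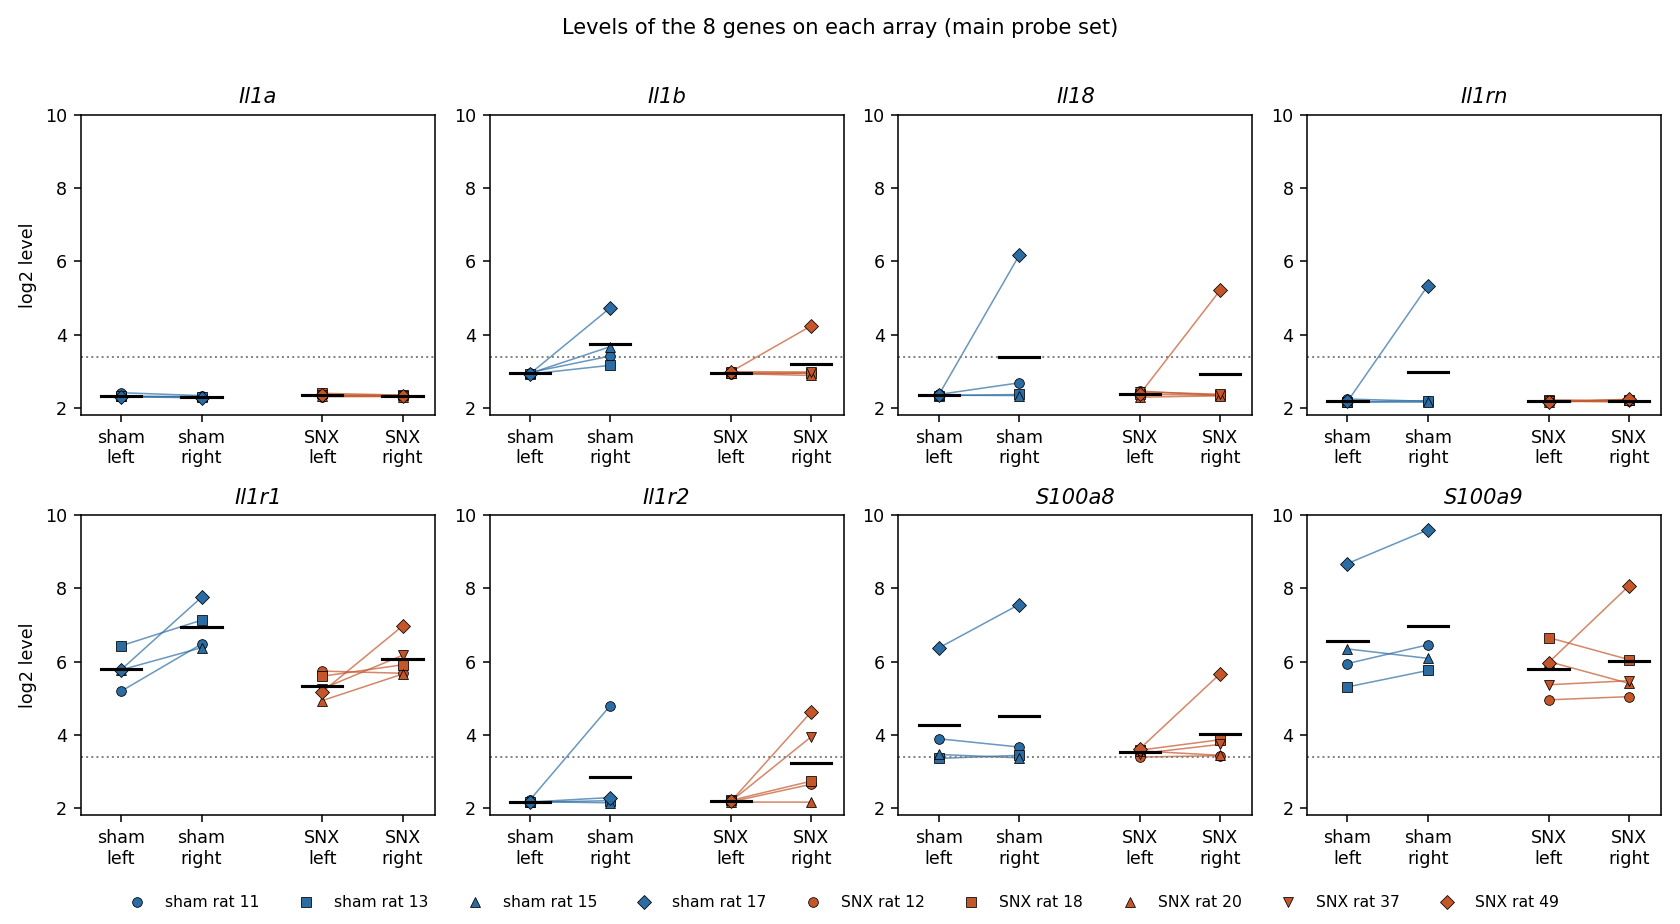
Log2 level of each of the 8 genes (vertical axis) on each of the 18 arrays, grouped by operation and limb (horizontal axis). Points are arrays, thin lines join the limbs of a rat, bars are group means and the dotted line is the highest array median, 3.38. Il1r1 lies above the dotted line on all 18 arrays, whereas Il18 does so on 2 and Il1rn on 1.

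Among the ligands, Il1a, whose protein is an alarm signal released by damaged cells, lay between 2.27 and 2.41 on the 18 arrays. No array exceeded the array medians, and its other probe set lay between 2.12 and 2.21. No difference is given for it, since neither probe set showed a signal above background in any group.

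Il1b, the secreted IL-1 cytokine of activated macrophages, was flat in the left limb, between 2.92 and 2.98 over all 9 rats. In the sham right limb its level was 3.41 (rat 11), 3.16 (rat 13), 3.67 (rat 15) and 4.73 (rat 17). All of these lay above every sham left array, and 3 of the 4 lay above background. In the SNX right limb it was 2.95 (rat 12), 2.94 (rat 18), 2.88 (rat 20), 2.98 (rat 37) and 4.24 (rat 49). Of the SNX right arrays, the one of rat 49 alone stood above the left limbs. Il1b was the member, 1 of 8, whose sham left and sham right values did not overlap. The share over all probe sets was 8.64%. No member separated right from left in SNX rats (1.95% of all probe sets), or SNX from sham in the left limb (2.52%) or the right limb (8.25%). The sham right minus left difference was 0.81 ± 0.31 (log2 ± SE, limma adjusted p = 0.297, higher on the right in 4 of 4 rats), and the SNX one was 0.24 ± 0.27 (adjusted p = 0.892, higher in 2 of 5). Their average was 0.52 ± 0.20 (adjusted p = 0.18). Without sham right 17 and SNX right 49, the sham difference was smaller but far less variable, at 0.48 ± 0.08 (limma adjusted p = 0.0225). The average difference without them was 0.23 ± 0.05 (adjusted p = 0.0435), and with the rat as a random block the values were 0.48 ± 0.07 and 0.23 (adjusted p = 0.00519 and 0.0115). In SNX rats the unblocked difference without these arrays was -0.019, so the average rests on the sham rats. Of the arrays left, only sham right 11 and sham right 15 were above background. The SNX minus sham difference of Il1b in the right limb was -0.55 ± 0.29 (limma adjusted p = 0.498), and -0.48 ± 0.08 without sham right 17 and SNX right 49 (adjusted p = 0.0972). The SNX response minus the sham response was -0.56 ± 0.41 (adjusted p = 1), and -0.50 ± 0.11 without them (limma adjusted p = 1). Since the left levels lay below background, where arrays hardly vary, the size of these differences is uncertain, and so are their standard errors and p-values.

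Il18, the other inflammasome-processed cytokine gene, was above background on 2 arrays, sham right 17 at 6.16 and SNX right 49 at 5.21. On the other 16 arrays it lay between 2.29 and 2.68. These are the arrays that stood apart, and each exceeded the left limb of its own rat by 3.82 and 2.84. The right minus left difference was 1.04 ± 0.75 in sham rats and 0.53 ± 0.67 in SNX rats (log2 ± SE, limma adjusted p = 0.549 and 0.903). Both values rest on these arrays, since no other array was above background.

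Il1rn, the antagonist gene, was at background on 17 of the 18 arrays, between 2.15 and 2.24. On sham right 17 it reached 5.34, which exceeded the left limb of the same rat by 3.17. It was not raised on SNX right 49 (2.23), the array on which Il1b, Il18 and S100a8 were also high. The sham right minus left difference of 0.78 ± 0.50 (log2 ± SE, limma adjusted p = 0.519) therefore rests on 1 array.

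Il1r1 was above background on all 18 arrays. In sham rats its level went from 5.19 on the left to 6.48 on the right (rat 11), from 6.43 to 7.13 (rat 13), from 5.77 to 6.38 (rat 15) and from 5.78 to 7.76 (rat 17). In SNX rats it went from 5.74 to 5.68 (rat 12), from 5.60 to 5.91 (rat 18), from 4.93 to 5.66 (rat 20), from 5.26 to 6.17 (rat 37) and from 5.17 to 6.97 (rat 49). The right limb was higher in 4 of 4 sham and 4 of 5 SNX rats, and the group ranges overlapped, because the sham left muscle of rat 13 (6.43) lay above the sham right muscle of rat 15 (6.38). The largest changes were on the arrays of rats 17 and 49 that stood apart. Group means were 6.94 ± 0.64 in sham right, 6.08 ± 0.54 in SNX right, 5.79 ± 0.51 in sham left and 5.34 ± 0.33 in SNX left (SD, n = 4 or 5 rats). Each group overlapped with its neighbour in this order.

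The right minus left difference of Il1r1 was 1.14 ± 0.35 in sham rats and 0.74 ± 0.31 in SNX rats (log2 ± SE, limma adjusted p = 0.196 and 0.572). With the rat as a random block these became adjusted p = 0.0649 and 0.259. The average over both kinds of rat was 0.94 ± 0.23 (limma adjusted p = 0.0456; with the block 0.94 ± 0.20, adjusted p = 0.0125). This call was near the threshold. It was lost with the rat as a fixed term (adjusted p = 0.055), without sham right 17 and SNX right 49 (0.69 ± 0.18, adjusted p = 0.0748), and when any 1 of the 9 rats was left out (0.80 to 1.04, adjusted p = 0.0532 to 0.135). With the block and without both arrays it was kept, at 0.68 ± 0.15 (adjusted p = 0.0169). Taken as the mean of its 3 probe sets, Il1r1 gave a smaller difference, 0.31 ± 0.08 (limma adjusted p = 0.0483). The difference was above 0 in 18 of 18 alternatives and called in 7 of them. These alternatives reuse the same arrays, so their shared direction is not separate support. The probe set mean is among the 7, and it averages in probe sets that lay below background. The SNX response minus the sham response was -0.40 ± 0.46 (limma adjusted p = 1), so a difference between the responses was not detected. In the right limb Il1r1 gave an SNX minus sham difference of -0.86 ± 0.33, which did not pass (limma adjusted p = 0.498), and the left limb gave -0.45 ± 0.33 (adjusted p = 0.87). The other Il1r1 probe sets did not show this pattern. They lay between 2.10 and 2.19 and between 2.36 and 2.46, below the array medians, so the result rests on 1 of 3 probe sets.

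Il1r2, the decoy receptor gene, was at background in every left limb, between 2.15 and 2.22. In the right limb it was 4.80 in sham rat 11, 4.63 in SNX rat 49 and 3.95 in SNX rat 37. SNX right rats 18 and 12 had 2.74 and 2.65, and SNX rat 20 had 2.16. The remaining sham right arrays did not exceed 2.29, and these include rat 17, on which the other inducible members were highest. Sham left and right therefore overlapped, as did SNX left and right. The right minus left difference was 0.68 ± 0.56 in sham rats (log2 ± SE, limma adjusted p = 0.579) and 1.04 ± 0.50 in SNX rats (adjusted p = 0.635), and was above 0 in 3 of 4 and 4 of 5 rats. The average of 0.86 ± 0.37 (limma adjusted p = 0.225) did not pass, nor did it with the block (adjusted p = 0.108). Without rat 11 no sham array was above background.

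S100a8 was high on 3 arrays. It was 6.37 and 7.56 in the left and right muscle of sham rat 17 and 5.67 in the right muscle of SNX rat 49. The other sham left arrays had 3.89, 3.35 and 3.46 (rats 11, 13 and 15) and the other sham right arrays 3.67, 3.44 and 3.37. SNX left arrays lay between 3.39 and 3.62, and the other SNX right arrays were 3.43 (rat 12), 3.87 (rat 18), 3.44 (rat 20) and 3.74 (rat 37). All 4 groups overlapped, and outside these 3 arrays the level was close to background.

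S100a9 was above background on all 18 arrays and was highest on the same 3. Its sham left levels were 5.95, 5.31, 6.35 and 8.68, and its sham right levels 6.46, 5.76, 6.09 and 9.60 (rats 11, 13, 15 and 17). Its SNX left levels were 4.96, 6.66, 6.00, 5.37 and 5.97, and its SNX right levels 5.04, 6.05, 5.41, 5.48 and 8.07 (rats 12, 18, 20, 37 and 49). Sham rat 17 was high in both limbs, whereas SNX rat 49 was high in the right limb only, with 5.97 on the left. Over 18 arrays the levels of S100a8 and S100a9 had a correlation of 0.939, and of 0.853 over the 16 arrays other than sham right 17 and SNX right 49. Those 16 keep sham left 17 (6.37 and 8.68), which exceeded the other 15 arrays (at most 3.89 and 6.66). Both correlations thus include arrays high for both genes, and none was taken without all 3. They describe arrays of which pairs share a rat.

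Neither gene passed any comparison. The average right minus left difference was 0.37 ± 0.57 for S100a8 and 0.31 ± 0.59 for S100a9 (log2 ± SE, limma adjusted p = 0.717 and 0.77). Without sham right 17 and SNX right 49 the values were -0.34 and -0.38, but that fit keeps the high left muscle of rat 17 and so breaks its pair. Without both limbs of rat 17, the sham differences were -0.078 and 0.23, and without both limbs of rat 49 the SNX differences were 0.11 and -0.25. SNX minus sham gave -0.74 ± 0.81 and -0.78 ± 0.84 in the left limb (limma adjusted p = 0.896 for each), and -0.48 ± 0.81 and -0.97 ± 0.84 in the right limb (adjusted p = 0.747 and 0.556). Sham rat 17 set most of the left limb values, which were -0.04 and -0.08 without it. In the right limb the differences without sham rat 17 were 0.54 and -0.09.

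**Figure D2:**
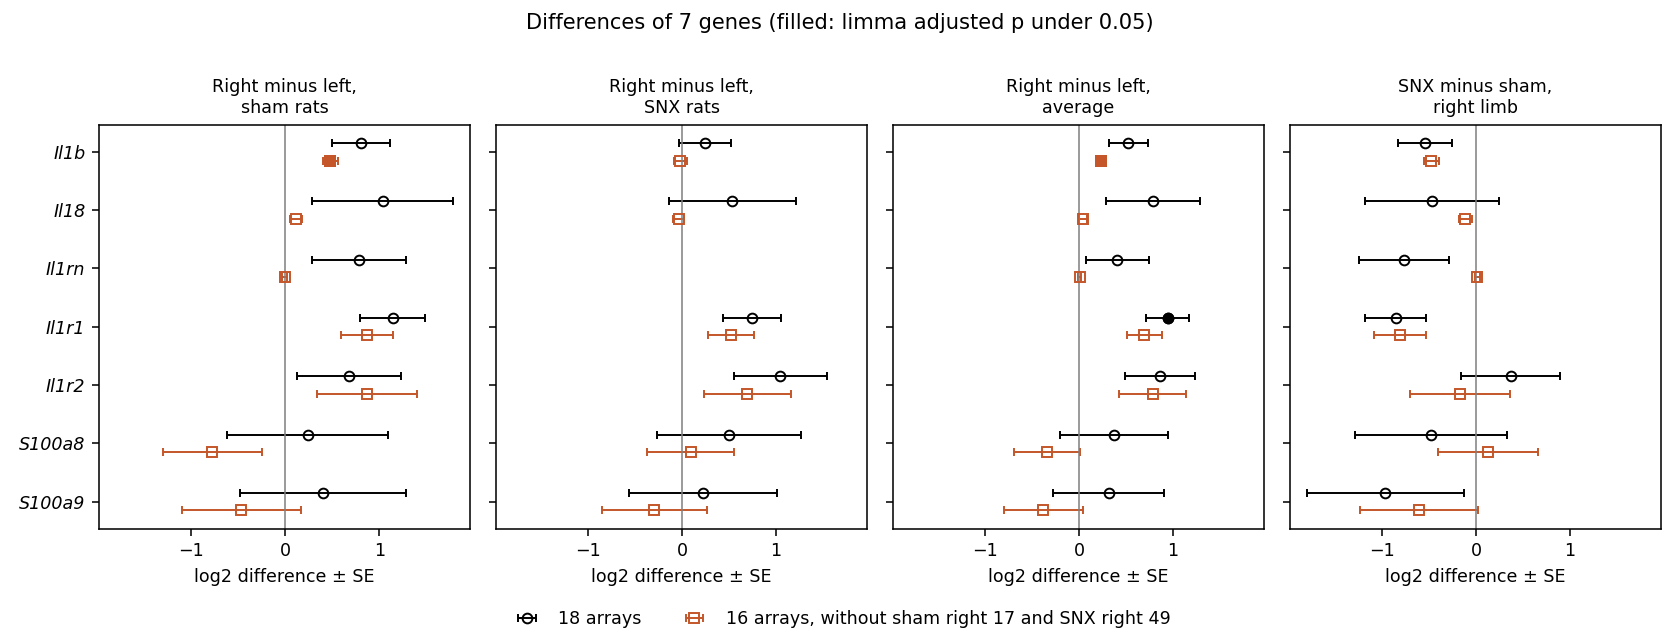
Log2 differences with standard errors (horizontal axis) for 7 genes (rows) in 4 comparisons, from the limma fit of 18 arrays (circles) and of the 16 arrays other than sham right 17 and SNX right 49 (squares). Filled symbols passed an adjusted p of 0.05, which were Il1r1 in the average over 18 arrays and Il1b in sham rats and in the average over 16. Il1a, and Il1rn in SNX rats, had no array above background and are not drawn.

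Counted over the 8 members, 0 passed for right against left in sham rats, where 0.148% of all probe sets passed, and 0 in SNX rats, where 0.0451% passed. For the average over both kinds of rat 1 passed (Il1r1), against 2.55% of all probe sets. For SNX against sham, 0 members passed in the left limb (0.00644% of all probe sets) and 0 in the right limb (0%). For the difference of the responses 0 passed (0% of all probe sets). With the rat as a random block the member counts were the same, and the shares of all probe sets were 1.8% in sham rats, 0.319% in SNX rats, 9.05% for the average, 0% for the difference of the responses, 0.00644% in the left limb and 0% in the right limb. Before adjustment, limma p-values under 0.05 were found for Il1r1 and Il1b in sham rats, for Il1r1 in SNX rats, for Il1r1, Il1b and Il1r2 in the average and for Il1r1 in the right limb. Over all probe sets, unadjusted limma p-values under 0.05 numbered 3828 in sham rats, 2459 in SNX rats, 5866 (18.9%) in the average, 1941 for SNX against sham in the left limb, 2872 in the right limb and 437 for the difference of the responses. Without sham right 17 and SNX right 49, 1 member (Il1b) passed in sham rats (0.59% of all probe sets) and 1 (Il1b) in the average (2.11%). Adding the block to that fit gave 1 in sham rats (3.13%) and 2, Il1b and Il1r1, in the average (6.12%).

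**Figure D3:**
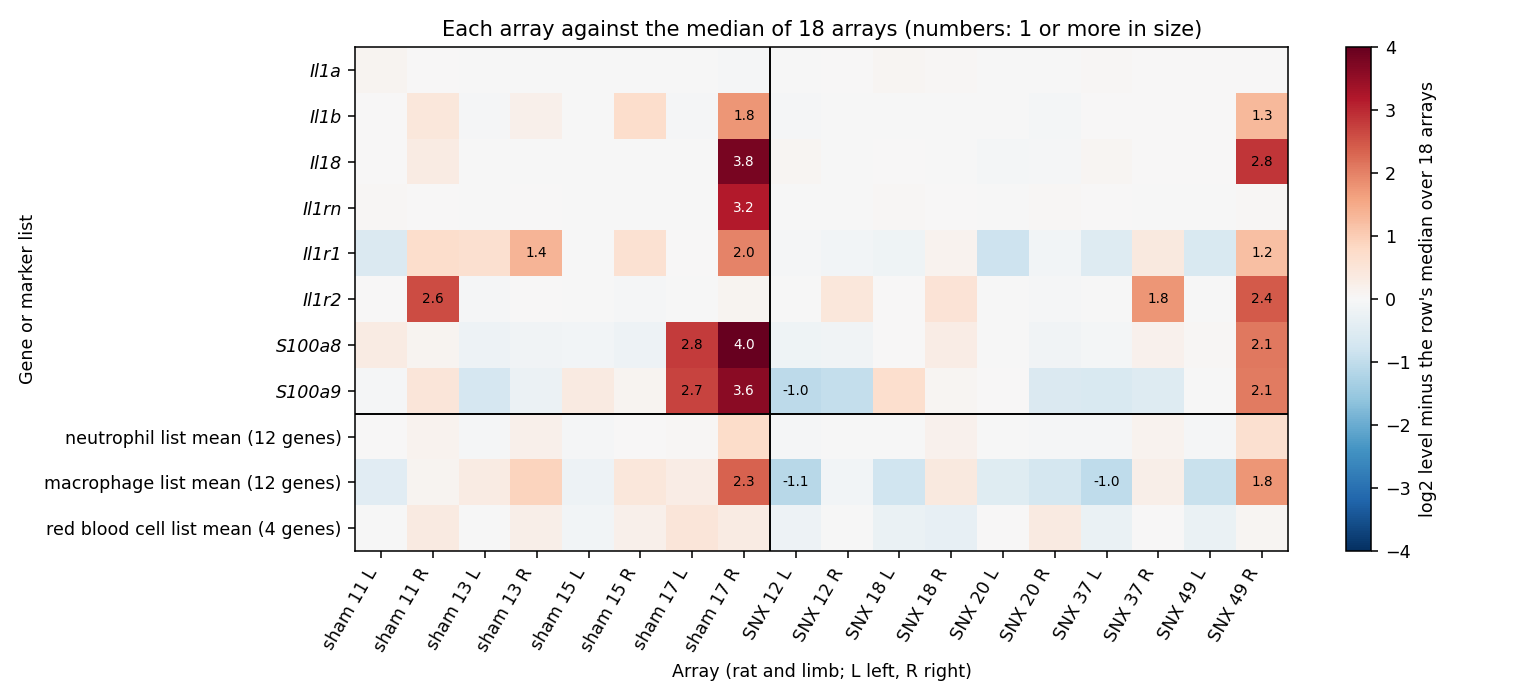
Log2 level of each of the 8 genes, and mean log2 level of 3 marker lists (rows), minus the median of that row over 18 arrays, for each array (columns, by rat and limb). Numbers are printed where the size is 1 or more. Sham right 17 and SNX right 49 carry most of the high values, sham left 17 is high for S100a8 and S100a9 and not for Il1b, Il18 or Il1rn, and Il1r2 is high on sham right 11, SNX right 37 and SNX right 49.

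The members thus fell into different patterns over the arrays. On sham left 17, S100a8 and S100a9 were high (6.37 and 8.68) while Il1b (2.93), Il18 (2.35), Il1rn (2.17) and Il1r2 (2.16) were at background. Markers of other cell types were set beside these values. The macrophage list mean ran from 5.63 to 6.43 in sham left, from 6.21 to 8.43 in sham right, from 4.98 to 5.61 in SNX left and from 5.38 to 7.86 in SNX right, with the upper ends on sham right 17 and SNX right 49. The neutrophil list mean over 12 measured of 22 genes ran from 2.34 to 2.44 in sham left, from 2.40 to 3.11 in sham right, from 2.33 to 2.38 in SNX left and from 2.35 to 3.02 in SNX right. Of these markers, Camp, Csf3r, Cxcr1, Cxcr2, Defa5, Mmp8, Mmp9, Np4, Padi4 and Pglyrp1 did not exceed the highest array median, 3.38, on any of the 18 arrays. The exceptions were the integrin genes Itgam and Itgb2, which macrophages also express. Itgam was 4.93 on sham right 17 and 4.52 on SNX right 49 and at most 2.44 elsewhere, and Itgb2 was 9.13 and 8.60 there. On sham left 17 they were 2.38 and 3.30. Of 4 measured red blood cell genes, Alas2 had its highest value, 3.95, on sham left 17. Hbb was highest on sham right 17 (12.80, and 12.61 on sham left 17), and Epb42 and Slc4a1 were not above background on any array. Of 8 measured keratinocyte genes, Krt10 (6.21 to 7.83) and Tp63 (3.41 to 3.73) were above background on all 18 arrays and the others, Krt1, Krt5 and Krt14 among them, on none. The slow fibre list mean was 11.82 on sham left 17, the lowest of the sham arrays. The part of these cell types in the member values was not tested.

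Genes with profiles most like those of the members were found by Pearson's r over 18 arrays, given here as a description. For Il1r1 they were Vat1 (r = 0.948), Fuca1 (0.944) and Lgals3 (0.942), with values of 0.899, 0.938 and 0.900 over the 16 arrays other than sham right 17 and SNX right 49. For Il1b they were Cdh16 (0.973), Ly86 (0.966) and Milr1 (0.965), with 0.963, 0.822 and 0.819 over 16 arrays. For Il1rn, Ccl3, Igsf23 and Gpx2 had r of at least 0.999, which rests on sham right 17, and over 16 arrays r was between 0.508 and 0.785. For Il18, Pstpip1, Pgap6 and Blnk had r of at least 0.996, and 0.653, 0.415 and 0.0124 over 16 arrays. For Il1r2 the closest was Parm1 (0.948, and 0.926 over 16 arrays), followed by Usp47 (0.908) and Mettl1 (0.906). For S100a8 they were Pde3b (0.952), Gusb (0.935) and Erh (0.928), and for S100a9 Jpt2 (0.908), Slc39a8 (0.888) and Erh (0.884). Over 16 arrays the values were 0.869, 0.827 and 0.81 for S100a8 and 0.811, 0.767 and 0.721 for S100a9. Those 16 keep sham left 17, on which both genes were high. Il1a, at background throughout, was closest to Hbg1 (0.978), Tnni3k (0.969) and Vom1r101 (0.961). Its values over 16 arrays were 0.975, 0.972 and 0.957. The arrays share rats.

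The rest of the pathway was read from 7 gene lists in the average right minus left comparison, in which 2.55% of all probe sets passed without the block and 9.05% with it. The median difference of all genes was -0.01. Of the other IL-1 family ligands and decoys, 4 of 7 were measured, 0 passed and 2 lay above 0 (median 0.25). With the block Il33, an alarm cytokine of stromal and endothelial cells, passed at 0.62 ± 0.15 (log2 ± SE, limma adjusted p = 0.021), and it did not pass without the block (adjusted p = 0.093). No gene of this list passed with the block without sham right 17 and SNX right 49. Of the other IL-1 family receptors 4 of 8 were measured and 0 passed in either fit (median 0.00386). The lowest p belonged to the shared accessory chain gene Il1rap, at 0.19 ± 0.14 (limma adjusted p = 0.438), and to Il1rl2 (adjusted p = 0.521), which was not above background on any array. Il1rap was above background on 2 arrays, sham right 17 (3.96) and SNX right 49 (3.52), and at most 2.99 elsewhere. Its difference thus rests on these arrays.

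Inflammasome and processing genes were above 0 in 8 of 8 measured (median 0.306), and 2 of them passed, with and without the block. The 8 include P2rx7, which was not above background on any array (2.32 to 2.41). The share of all genes above 0 was not counted. Pycard, which encodes the inflammasome adaptor ASC, rose from 6.56 ± 0.58 to 8.06 ± 0.85 in sham rats and from 5.92 ± 0.56 to 7.45 ± 1.15 in SNX rats (SD, n = 4 and 5). Its average difference was 1.52 ± 0.38 (log2 ± SE, limma adjusted p = 0.0483). Casp4, an inflammatory caspase gene, rose by 0.46 ± 0.11 (limma adjusted p = 0.0425), with levels above background on 4 arrays. Of this list 1 passed without sham right 17 and SNX right 49, and 2 with the block.

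Of 14 IL-1 receptor signalling genes 0 passed without the block and 4 with it, all higher on the right (list median 0.124). With the block Map3k8, a kinase gene upstream of ERK, differed by 1.03 ± 0.28, and Irak3, which encodes an inhibitor of receptor signalling, by 0.78 ± 0.21 (log2 ± SE, limma adjusted p = 0.0324 and 0.0335). Without the block these had adjusted p = 0.121 and 0.117. With the block and without sham right 17 and SNX right 49, 1 passed. Of 14 genes that IL-1 is known to induce, 1 passed without the block and 3 with it, all higher (list median 0.295). Icam1, the endothelial adhesion molecule gene, rose from 5.61 ± 0.25 to 6.95 ± 0.53 in sham rats and from 4.64 ± 0.77 to 6.08 ± 0.67 in SNX rats (SD, n = 4 and 5), an average of 1.38 ± 0.28 (log2 ± SE, limma adjusted p = 0.0198). Nfkbiz, an inducible NF-kB cofactor gene, differed by 1.17 ± 0.29 with the block (adjusted p = 0.0227). Without the 2 arrays 3 of this list passed in either fit.

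Of 10 measured other S100 genes 2 passed without the block and 3 with it, all higher (list median 0.384). S100a4 rose from 8.61 ± 0.78 to 10.77 ± 1.45 in sham rats and from 7.48 ± 0.46 to 9.89 ± 1.47 in SNX rats (SD, n = 4 and 5). It was highest on sham right 17 (12.64) and SNX right 49 (12.03), and at most 11.02 elsewhere. Its average difference was 2.29 ± 0.51 (log2 ± SE, limma adjusted p = 0.0334), and that of S100a6 was 1.39 ± 0.25 (adjusted p = 0.013). S100a8 and S100a9 did not pass in the same fit. Of 6 genes for receptors and co-receptors of S100A8 and S100A9, 2 passed in either fit (list median 0.435). Cd14, the TLR4 co-receptor gene and a monocyte marker, differed by 2.36 ± 0.51 (limma adjusted p = 0.029), and Bsg by 0.28 ± 0.06 (adjusted p = 0.0253). In either fit without sham right 17 and SNX right 49, 2 of the S100 genes and 2 of the receptor genes passed.

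**Figure D4:**
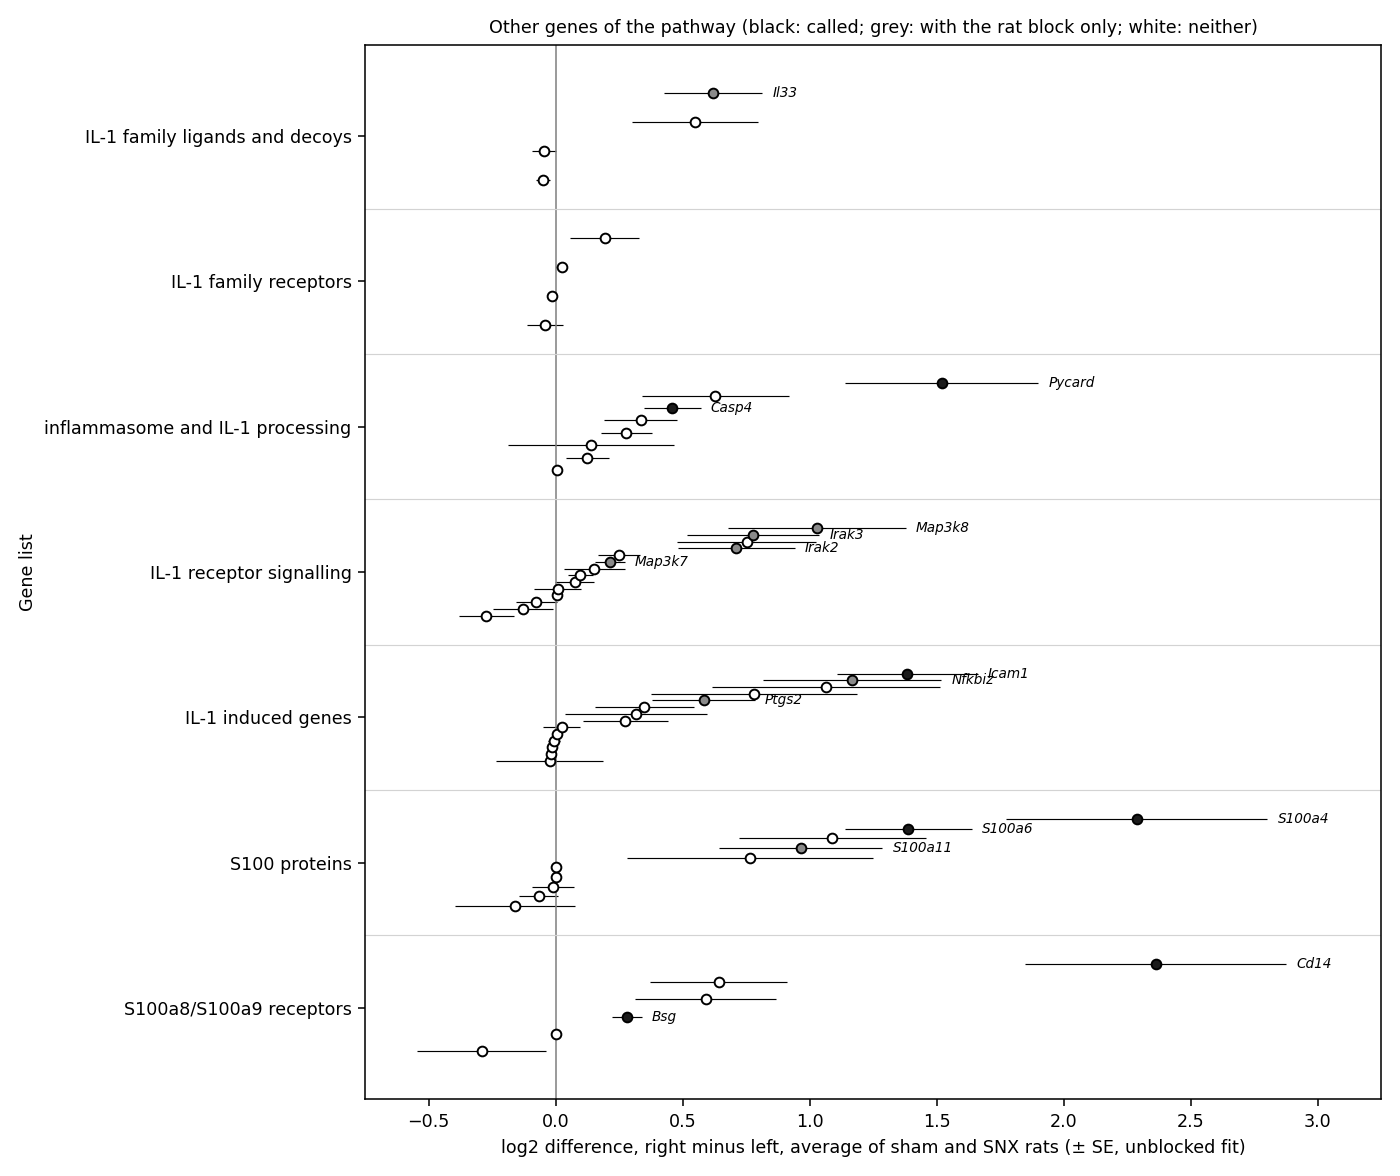
Average right minus left log2 difference with its standard error (horizontal axis) of each measured gene of 7 pathway lists (rows), from the unblocked limma fit of 18 arrays. Black points passed an adjusted p of 0.05, grey points passed with the rat as a random block only, white points neither. All named genes lie to the right of 0.

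Of the macrophage and monocyte markers, 12 of 14 were measured, 12 lay above 0 in the average right minus left comparison (median 0.958), and 1 passed without the block and 8 with it. The 12 include Ccr2, which was not above background on any array (at most 2.95). The largest were Cd14 and Fcgr1a, at 2.36 ± 0.51 and, with the block, 2.16 ± 0.61 (log2 ± SE, limma adjusted p = 0.029 and 0.0393). Both were highest on sham right 17 and SNX right 49. Cd14 was 9.97 and 9.15 there, and at most 7.25 elsewhere. Fcgr1a was 9.61 and 9.42 there, and at most 6.24 elsewhere. The sizes of these differences without the 2 arrays are not given here. Of the neutrophil markers 0 passed without the block and 1, Itgb2, with it (2.41 ± 0.64, adjusted p = 0.0313), with a list median of -0.01. Without sham right 17 and SNX right 49, 1 macrophage marker passed without the block and 3 with it, and the neutrophil counts stayed at 0 and 1. The part of these cells in the rise of Il1r1 was not tested.

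Separately in sham rats, no gene of these 7 lists passed without the block. With it, Nfkbiz (1.79 ± 0.43), Ptgs2 (1.06 ± 0.26), Irak3 (1.34 ± 0.32), Casp4 (0.61 ± 0.15) and Bsg (0.35 ± 0.08) were higher on the right (log2 ± SE, limma adjusted p = 0.0477, 0.0492, 0.0433, 0.0485 and 0.0424). In SNX rats S100a6 alone of these lists passed with the block, at 1.54 ± 0.30 (limma adjusted p = 0.0424). No list gene passed for SNX against sham in either limb or for the difference of the responses, in either fit. The genes closest to the threshold in the difference of the responses were Ptgs2, at -0.95 ± 0.40 and Gsdmd, at -0.46 ± 0.20 (limma adjusted p = 1 for each). In the left limb S100b gave an SNX minus sham difference of -3.05 ± 0.69, which did not pass (limma adjusted p = 0.352).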

How the data were processed

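The data are deposited log2 values of 31099 probe sets on 18 Affymetrix rat arrays, hybridised with biotin-labelled cRNA from 2 micrograms of total RNA per the labels' protocols, which the authors had normalized. Per the submitters' processing notes the software was RMA, GCRMA and Partek, with neither version nor role, and the one behind the values is not given in the sources used. These methods differ in background correction, which affects dim probe sets most, and several of the 8 genes are dim. Values ran from 0.800 to 15.9. Arrays carry no read depth, and the number of arrays limits the precision.

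The 57 control probe sets were left out. Symbols came from the platform annotation, updated by Entrez ID to the RefSeq table of GRCr8 (20758 of 20826 probe sets with 1 gene matched). Another 436 probe sets list several genes and 9780 none, and these were tested without a name. Each group got 1 mean per probe set with limma 3.58.1 (lmFit and eBayes, 14 residual and 1.02 prior degrees of freedom) in R 4.3.3, with input by the data.table package, version 1.17.8. P-values are two-sided and Benjamini-Hochberg adjusted over 31042 probe sets, with a threshold of 0.05. The script was tested on simulated data.

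Numbers in the labels pair the limbs of an animal, so a second fit took the animal as a random block (duplicateCorrelation, correlation 0.297), given beside results it changes. In 7 of 9 rats the left and right deviations from the group mean had a correlation above 0.1. The alternatives were a fixed rat term, fits of only the groups compared, quantile and median scaling, a filter on dim probe sets, array weights, the mean of all probe sets of a gene, leaving out each rat in turn, and leaving out the right muscles of rats 17 and 49. The last with the block, and the list counts without these arrays, were added after seeing the data.

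The members, the lists and the rule for naming genes were chosen with earlier results of these data known. All members are named, from each list up to 2 higher and 2 lower genes past the threshold in either fit or, where none passed, the 2 with the lowest p, and for likeness the 3 genes with the highest r, without LOC and RGD symbols. Genes named beyond this rule (the integrins, Camp, Alas2, Epb42, Slc4a1, keratins, Myh4, P2rx7, Ccr2, Cd8a, S100b and the other neutrophil markers) were chosen after their values were seen. Where no array of either group compared exceeded 3.38, the highest array median, the report gives no difference. List medians and counts above 0 include such genes. The values without some arrays in the closing section, and the squares in the plot of differences, include genes for which no remaining array did.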

Additional observations from a re-analysis of the deposited data

Results flagged for a closer look

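In 8 cases the highest array of a group lay far from the others of its group, measured by its gap to the nearest array over the range of the group. Chance alone marks about 1 in 20 groups in this way, and 32 groups of 4 or 5 arrays were looked at. Among the right limb arrays of sham rats, rat 17 was apart for Il18 at 6.16 (the next array had 2.68), for Il1rn at 5.34 (next 2.19) and for S100a8 at 7.56 (next 3.67). Among those of SNX rats, rat 49 was apart for Il18 at 5.21 (next 2.37), for Il1b at 4.24 (next 2.98) and for S100a8 at 5.67 (next 3.87). Il1r2 was apart on the right limb of sham rat 11 at 4.80 (next 2.29), an array that was not apart for any other of the 8 genes. Il1a was apart on the left limb of sham rat 11 at 2.41 (next 2.31), with all values at background. The part of tissue composition in these values was not tested.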

How the results depend on the processing

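Over 37 member differences and 629 alternative values, 573 kept their direction and side of the threshold, 41 turned in sign, 11 lost the call and 4 gained it, and none of the values that turned was called. With the rat as a random replicate block the members called were the same, and for Il1r1 the average difference was 0.94 (adjusted p = 0.0125). As a fixed replicate block it called 0 members in the average, where 1 was called. Leaving out each rat in turn also called 0 there. Without the right muscles of rats 17 and 49, 1 member (Il1b) was called in sham rats. With the block added 1 was called there and 2 in the average. The cause was not tested.

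For Il1r1 the mean of its probe sets gave an average difference of 0.31 in place of 0.94. The fits without these 2 arrays keep the left muscle of rat 17, in which S100a8 and S100a9 were high, and for Il18 and Il1rn they hold no array above background. In them, right minus left in sham rats turned to -0.0056 for Il1rn, -0.78 for S100a8 and -0.47 for S100a9. In SNX rats it turned to -0.019 for Il1b, -0.039 for Il18 and -0.30 for S100a9. The average turned to -0.34 for S100a8 and -0.38 for S100a9. The difference of the responses turned to 0.018 for Il1rn, -0.18 for Il1r2 and 0.17 for S100a9, and SNX minus sham on the right to 0.014 for Il1rn, -0.17 for Il1r2 and 0.13 for S100a8. With the block added, the sham values of the same genes were -0.0067, -0.53 and -0.22. Those of the SNX rats were -0.017, -0.040 and -0.28. The averages were -0.22 and -0.25. The difference of the responses was then 0.017 for Il1rn and -0.17 for Il1r2, and SNX minus sham on the right 0.012 and -0.17. Array weights gave -0.013 for S100a8 in sham rats and -0.043 for S100a9 in SNX rats.

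Leaving out each rat in turn, right minus left in sham rats ran from -0.0087 to 1.07 for Il1rn and from -0.078 to 0.39 for S100a8, the lowest without rat 17. In SNX rats it ran from -0.012 to 0.32 for Il1b, from -0.042 to 0.70 for Il18 and from -0.25 to 0.43 for S100a9, the lowest without rat 49. The difference of the responses ran from -1.05 to 0.030 for Il1rn, from -1.08 to 0.42 for Il18, from -0.12 to 0.58 for S100a8 and from -0.66 to 0.019 for S100a9. SNX minus sham on the right ran from -1.04 to 0.022 for Il1rn, from -1.04 to 0.46 for Il18 and from -0.89 to 0.54 for S100a8.

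Over all probe sets the calls moved by more than the members. Right against left in sham rats called 46 probe sets, and from 0 (without rat 17) to 972 (with the block and without the 2 arrays) under the alternatives. In SNX rats 14 became 0 to 99, the highest with the block. The average called 791, and from 153 (without rat 11) to 2808 (with the block). The left limb called 2, and 0 to 60, the highest with array weights. The right limb and the difference of the responses called 0, and at most 10 (without rat 11) and 3. No difference is given for Il1a, or for Il1rn in SNX rats, since no array there was above background.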

Other observations

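Endothelial genes moved in both directions in the average right minus left comparison. The VEGF receptor gene Kdr and the junction gene Pecam1 were higher on the right, at 0.85 ± 0.15 and 0.34 ± 0.08 (log2 ± SE, limma adjusted p = 0.0104 and 0.0421). With the rat as a random block Cldn5, a tight junction gene, was also higher at 0.65 ± 0.17 (adjusted p = 0.0269), and Tek, the angiopoietin receptor gene, lower at -0.58 ± 0.12 (adjusted p = 0.0108). Among 8 measured keratinocyte genes Krt10 passed with the block alone, at -0.60 ± 0.14 (adjusted p = 0.0204).

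No gene of the T cell, B cell, mast cell, platelet, red blood cell, fibroblast, slow fibre or fast fibre lists passed in that comparison in either fit. The genes nearest to the threshold included Pf4 of the platelet list at 0.92 ± 0.41, Hbb of red blood cells at 0.52 ± 0.22, and the fibroblast genes Pdgfra and Dcn at 0.58 ± 0.22 and 0.36 ± 0.14 (log2 ± SE, limma adjusted p = 0.237, 0.216, 0.161 and 0.165). Pf4 was highest on sham right 17 (9.40) and SNX right 49 (8.96), and at most 7.85 elsewhere. The other measured genes of the platelet list were not above background on any array. For Cd3e and Lck of T cells limma gave adjusted p = 0.4 and 0.405, for Ms4a1 and Cd79b of B cells 0.535 and 0.772, and for Ms4a2 and Tpsab1 of mast cells 0.369 and 0.383. For Tnnc1 and Myl3 of slow fibres it gave adjusted p = 0.879 and 0.887, for Atp2a1 and Myh1 of fast fibres 0.43 and 0.451, and for Alas2 and Gp5 0.392 and 0.517. Lck, Ms4a1, Cd79b, Ms4a2 and Gp5 were not above background on any array, Cd3e was on 1, Tpsab1 on 2 and Alas2 on 3. Cd8a of the T cell list was 8.55 on sham right 17 and 6.31 on SNX right 49, and at most 2.27 elsewhere.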
